A study of Mus musculus with 3 samples.

Results

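The regions described here are 544 weak peaks of H3K4me3 (histone H3 trimethylated at lysine 4) that lay close to H3K27ac (histone H3 acetylated at lysine 27) without touching it, in a cultured mouse acute lymphoblastic leukaemia of B-cell precursors. They were chosen by their own deposited values: a score below 500 in the H3K4me3 peak list, no base shared with any H3K27ac peak, and at most 10000 bp between the peak and the nearest H3K27ac peak on the same chromosome. They made up 544 of 18142 H3K4me3 peaks, or 2.999% (exact 95% binomial interval 2.76 to 3.26%). All 544 entered the counts below, with no further filter.

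The cells are driven by Bcr-Abl, a fusion tyrosine kinase, and were neither stimulated nor treated. Both groups compared, the H3K4me3 and the H3K27ac immunoprecipitation, came from this culture, with 1 library per mark; a control immunoprecipitation with IgG has no peak list here and was not analysed. Whether the culture is 1 clone is not stated. Each peak was called by the authors with MACS, a peak caller for ChIP-seq reads, on mouse build mm9, and carries the authors' own score, which no label or header defines. Scores started at 50.01 in either list, and 9042 H3K4me3 peaks were tied at 3100, called the ceiling below. Read depth is unknown, and the limit of 500 ranks peaks within the H3K4me3 list only. No mm9 annotation or sequence was at hand, so the peaks are named by position, no gene or start site is assigned to them, no sequence is printed, and the labelled cell type was not checked against its genes.

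H3K4me3 is laid down around the start sites of genes, where it marks promoters that are active or held ready, and it is recognised by proteins that bring in the transcription machinery. H3K27ac is added by acetyltransferases such as CBP and p300 at active promoters and at active enhancers, the distal elements that raise the transcription of a gene. An active promoter usually carries both marks, an active enhancer carries H3K27ac with little H3K4me3, and promoters that are silent but held ready can carry H3K4me3 without acetylation. In precursor B cells the active genes of the B lineage carry these marks.

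Weak H3K4me3 peaks mostly lay on H3K27ac, though less often than stronger ones. Of the 6057 H3K4me3 peaks scoring below 500, 3956 (65.3%, interval 64.1 to 66.5%) overlapped an H3K27ac peak, 544 (8.98%, interval 8.27 to 9.73%) lay beside one within 10 kb, and 1557 (25.7%, interval 24.6 to 26.8%) lay farther away. The peaks beside H3K27ac were thus 25.9% (interval 24.0 to 27.8%) of the 2101 weak peaks without acetylation. Over all scores, 25.5% of the 2525 H3K4me3 peaks without H3K27ac had it within 10 kb. Overlap with H3K27ac was more frequent in the whole list, at 15617 of 18142 H3K4me3 peaks. At scores of 500 or more, 11661 peaks overlapped H3K27ac, 101 lay within 10 kb of it and 323 lay farther away.

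No change in closeness to acetylation with the score of the unacetylated peak was detectable. Among H3K4me3 peaks without H3K27ac, the share within 10 kb of it was 25.7% (236 of 919, interval 22.9 to 28.6%) at scores of 50 to 100 and 26.5% (172 of 650, interval 23.1 to 30.03%) at 100 to 200. It was 25.6% (136 of 532, interval 21.9 to 29.5%) at 200 to 500, 22.7% (51 of 225, interval 17.4 to 28.7%) at 500 to 1000, and 25.1% (50 of 199, interval 19.3 to 31.7%) at 1000 and above. All 5 intervals overlapped. The first 3 of these classes together hold the 544 peaks described here.

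**Figure D1:**
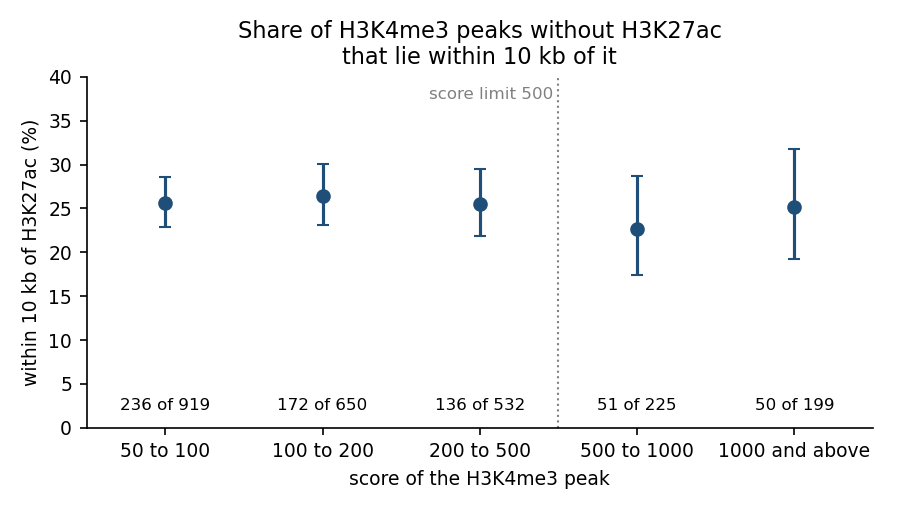
Share of H3K4me3 peaks without H3K27ac that lay within 10 kb of an H3K27ac peak (vertical axis, percent), by H3K4me3 score (horizontal axis). Points are shares, bars exact 95% binomial intervals, and the counts stand above the axis; the shares lie between 22.7 and 26.5% in all 5 score classes.

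The gap between the weak H3K4me3 peak and its acetylated neighbour had a median of 4329 bp (95% interval from order statistics 3972 to 4658 bp), with quartiles of 1857 and 6698 bp and a range of 6 to 9957 bp. These values are bounded by the rule and are given as a description. The gap was at most 100 bp for 6 peaks, at most 500 bp for 49, at most 1000 bp for 76 and at most 5000 bp for 321. The neighbour lay at lower coordinates for 266 peaks and at higher coordinates for 278. The number of weak peaks declined across the limit with no step: 167, 154, 128 and 95 peaks lay in the 4 successive 2500 bp steps up to 10000 bp, and 94 and 73 in the next 2. A further 776 lay at 50000 bp or more. The limit of 10 kb therefore cuts a continuous distribution.

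**Figure D2:**
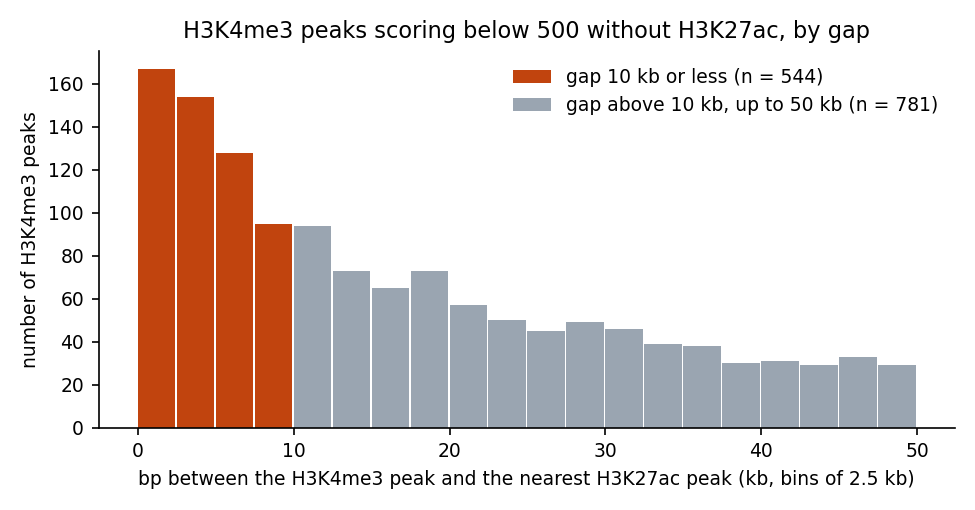
Number of H3K4me3 peaks scoring below 500 without H3K27ac (vertical axis) by the bp between them and the nearest H3K27ac peak (horizontal axis, kb, bins of 2.5 kb, up to 50 kb). Orange bars are the 544 peaks within 10 kb; counts decline from 167 in the first bin to 95 in the fourth and 94 in the fifth, with no step at the limit.

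Scores of the 544 peaks ranged from 50.1 to 491.4, with a median of 109 and quartiles of 69.7 and 199, so most lay far below the limit of 500. The weak peaks more than 10 kb from H3K27ac had a median score of 112 (interval 107 to 116), and the interval for the peaks beside H3K27ac was 103 to 118. The weak peaks on H3K27ac scored higher, with a median of 152 (interval 147 to 157). Scores chose the peaks only through the upper limit, which all 3 classes share.

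The peaks were narrow, at a median of 671 bp (interval 647 to 703 bp), with quartiles of 517 and 879 bp and a range of 201 to 2643 bp. Width moved with score across the 544 peaks (Spearman's rho 0.60, a description over peaks of 1 library), so widths were set side by side within score classes. At scores of 50 to 100 the median width was 553 bp (interval 533 to 581 bp) beside H3K27ac, 580 bp (interval 560 to 598 bp) far from it and 642 bp (interval 634 to 656 bp) on it. At 100 to 200 the widths were 706 bp (interval 666 to 751 bp), 764 bp (interval 737 to 787 bp) and 896 bp (interval 879 to 908 bp). At 200 to 500 they were 1005 bp (interval 946 to 1077 bp), 983 bp (interval 951 to 1007 bp) and 1142 bp (interval 1125 to 1158 bp). At a like score, weak peaks beside H3K27ac were thus narrower than weak peaks on it in each of the 3 classes, with intervals that did not overlap. Against weak peaks far from it, their median was lower at 50 to 100 and at 100 to 200 and higher at 200 to 500. Those intervals overlapped in each class, which does not decide whether the widths differ. Whether a peak overlaps H3K27ac can itself depend on width, and the part of this in the difference from peaks on H3K27ac was not tested. Gap and width were almost unrelated across the 544 peaks (rho 0.07), as were gap and score (rho 0.07).

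**Figure D3:**
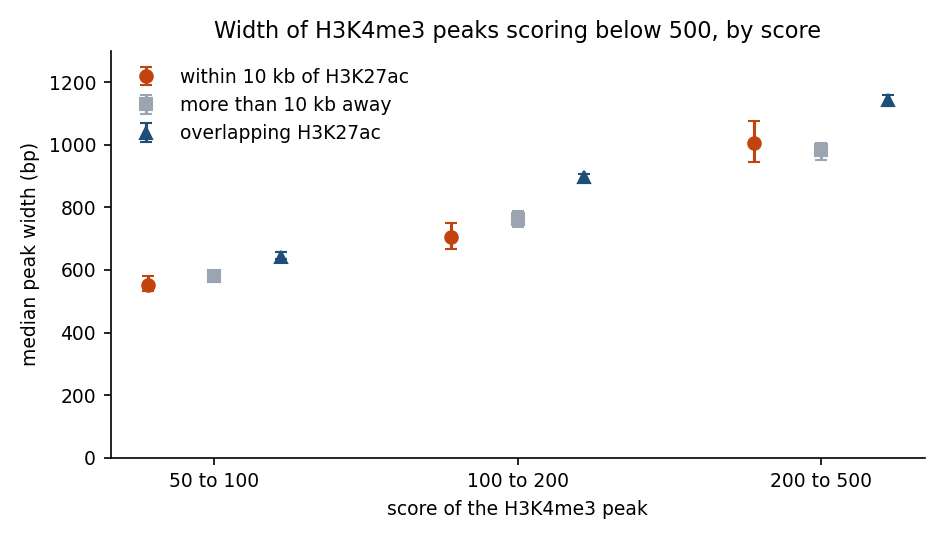
Median width (vertical axis, bp) of H3K4me3 peaks scoring below 500, in 3 score classes (horizontal axis), for peaks within 10 kb of H3K27ac (circles), farther away (squares) and overlapping it (triangles). Bars are 95% intervals of the median; circles and squares have overlapping intervals in each class, and triangles lie above both.

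The rule did not use the state of the acetylated neighbour, and most neighbours proved to carry H3K4me3 of their own. The nearest H3K27ac peak overlapped another H3K4me3 peak for 403 of the 544 weak peaks (74.1%, interval 70.2 to 77.7%), so that these lay beside a region with both marks. Over the whole list, 52.3% of H3K27ac peaks overlapped H3K4me3. The share was close to that of the 101 H3K4me3 peaks of score 500 or more in the same range of gaps, for which it was 73.3% (interval 63.5 to 81.6%). For the 1557 weak peaks farther away it was 67.5% (interval 65.1 to 69.8%), with intervals that only just separate. They separate at scores of 50 to 100 (76.7%, interval 70.8 to 81.9%, against 66.2%, interval 62.5 to 69.7%) but overlap at 100 to 200 (71.5 against 68.6%) and at 200 to 500 (72.8 against 68.4%), and the share of the close weak peaks after joining nearby H3K4me3 peaks (69.6%, interval 65.2 to 73.8%) overlaps that of the distant ones as deposited. The share of the close weak peaks was thus the higher in each score class, but the intervals separated only at 50 to 100. The joined value sets joined close peaks against distant ones that were not joined, so it cannot decide the question. Whether close and distant weak peaks differ at a like score therefore stays undecided. The remaining 141 weak peaks lay beside H3K27ac without H3K4me3. Of these, 41 had another H3K4me3 peak elsewhere within 10 kb and 100 had none.

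The 403 peaks beside a region with both marks had H3K27ac neighbours of low score and width for regions of that kind. The score of the neighbouring H3K27ac peak had a median of 1007 (interval 721 to 1343) and its width was 1612 bp at the median (interval 1502 to 1739 bp). All 15409 H3K27ac peaks with H3K4me3 had medians of 2414 (interval 2354 to 2487) and 2245 bp (interval 2223 to 2269 bp). The same neighbours of the weak peaks farther away lay between, at a median score of 1785 (interval 1540 to 2018) and a width of 1976 bp (interval 1894 to 2030 bp). For stronger H3K4me3 peaks within 10 kb the median neighbour score was 1189 (interval 707 to 1624, n = 74), which overlaps the interval of the weak peaks. For stronger peaks farther away it was 1594 (interval 1227 to 2401, n = 216), and the intervals of close and far stronger peaks overlapped. Neighbours with H3K4me3 thus scored lower beside the 544 than beside the weak peaks beyond 10 kb. Counting each of the 381 distinct neighbours once gave a median score of 1076 (interval 768 to 1373). Within the 544, however, the gap and the neighbour's score (rho 0.03) or width (rho 0.07) were almost unrelated. The rule bars any shared base, so an H3K27ac peak wide enough to reach the weak peak cannot be among these neighbours. Score and width of the neighbour moved together across the 544 (rho 0.89). The part of this selection in the low scores and widths was not tested.

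The H3K4me3 peak of those 403 neighbours was at or above the ceiling in 209 cases (51.9%, interval 46.9 to 56.8%), against 58.3% (interval 57.5 to 59.1%) of all H3K4me3 peaks that overlap H3K27ac. It scored above the weak peak beside it in 380 cases (94.3%), a count favoured by the rule, which holds the weak peaks below 500. It scored below 500 itself in 71 (17.6%), against 3956 of the 15617 H3K4me3 peaks that overlap H3K27ac. In these regions H3K4me3 often reached beyond the acetylation. On the side facing the weak peak, the outer edge of H3K4me3 lay outside the edge of H3K27ac in 257 of 403 cases (63.8%, interval 58.9 to 68.5%), and on the side away from it in 242 (60.0%, interval 55.1 to 64.9%). Over both edges of all 15409 H3K27ac peaks with H3K4me3, this held for 46.7% (interval 46.2 to 47.3%). H3K4me3 extended past the acetylation by a median of 106 bp (interval of the signed difference, H3K27ac minus H3K4me3, -153 to -65 bp) on the facing side and 62 bp (interval -100 to -38 bp) on the other. Taken within each of the 403 regions, the signed difference on the facing side minus that on the other had a median of -51 bp. Its interval was -93 to -10 bp, so H3K4me3 reached somewhat farther past the acetylation on the facing side. The rule bars H3K27ac from sharing a base with the weak peak, which bounds its facing edge but not the other. The part of this in the difference was not tested. The low score and small width of these H3K27ac peaks and the larger reach of H3K4me3 are not separate measurements, since a narrower acetylated peak leaves more H3K4me3 outside it.

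The 141 weak peaks beside bare H3K27ac had lower-scoring neighbours. For the 100 with no other H3K4me3 within 10 kb, the neighbour had a median score of 182 (interval 114 to 307), near the 188 (interval 182 to 195) of all 14059 H3K27ac peaks without H3K4me3, and measured 1171 bp at the median (interval 965 to 1428 bp). In 74 of these 100 the H3K27ac peak also scored below 500, and in 3 it was at or above the ceiling. The median gap of these 100 to H3K27ac was 4544 bp, and the next H3K4me3 peak was a median of 24834 bp away. Their own scores (median 109, interval 101 to 121) and widths (median 669 bp, interval 625 to 749 bp) had intervals overlapping those of the 403 peaks beside regions with both marks (107, interval 100 to 123, and 680 bp, interval 643 to 708 bp). The 41 with H3K4me3 elsewhere within 10 kb had a median neighbour score of 128 (interval 91.7 to 292) and a median score of their own of 141 (interval 88.9 to 198). These groups are defined by the H3K4me3 around the weak peaks, so a difference in those surroundings is built in. No difference between them in the weak peaks' own score or width was detectable.

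**Figure D4:**
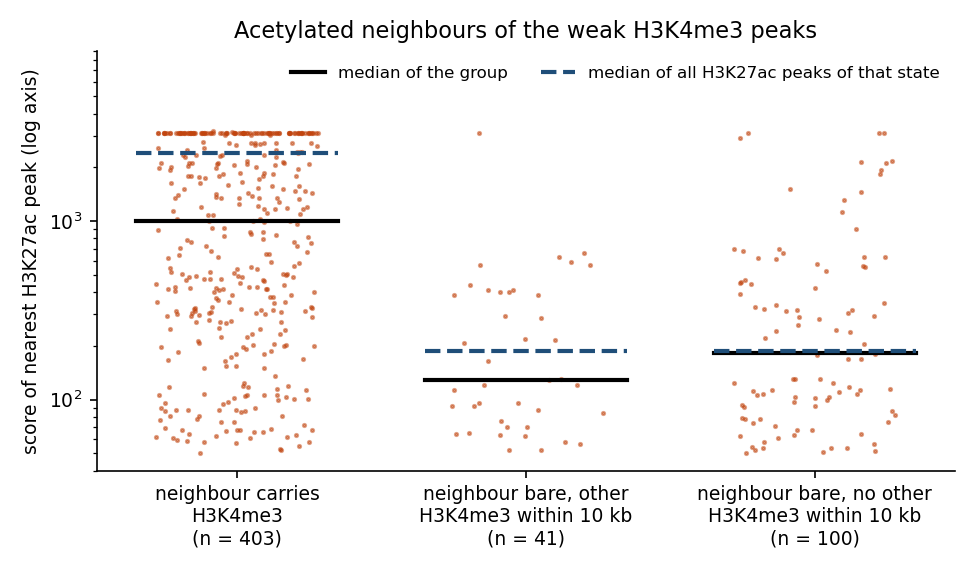
Score of the nearest H3K27ac peak (vertical axis, log scale) for each of the 544 weak H3K4me3 peaks, grouped by whether that neighbour carries H3K4me3 and, if not, whether another H3K4me3 peak lies within 10 kb. Each point is 1 weak peak placed with random sideways scatter, solid lines are group medians (1007, 128 and 182), and dashed lines are the medians of all H3K27ac peaks with (2414) or without (188) H3K4me3.

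Across all 544, the neighbour's score had a median of 510 (interval 429 to 629) and was at or above the ceiling in 105 cases (19.3%, interval 16.1 to 22.9%), compared with 24.1% of all H3K27ac peaks. It was below 500 in 269 (49.4%, interval 45.2 to 53.7%), compared with 44.8% of all H3K27ac peaks. The score of a weak H3K4me3 peak and that of its acetylated neighbour were almost unrelated (rho -0.03 over 544 peaks). The weak H3K4me3 peaks that overlapped H3K27ac lay on peaks with a median score of 1271 (interval 1208 to 1360). The highest-scoring H3K27ac peak was taken where 1 met several, which raises this value. An overlapped H3K27ac peak carries H3K4me3 by definition, so the median of 510 over all neighbours is not a like comparison. For the 403 weak peaks whose neighbour carried H3K4me3, the neighbour's median score was 1007 (interval 721 to 1343). That interval overlaps the interval of the overlapped peaks, so a difference in score is not decided.

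Another H3K4me3 peak lay within 10 kb of 440 of the 544 weak peaks (80.9%, interval 77.3 to 84.1%), against 36.5% of all H3K4me3 peaks, 46.0% (interval 44.5 to 47.6%) of weak peaks on H3K27ac and 9.96% (interval 8.51 to 11.6%) of weak peaks farther away. Most of the excess over the last follows from the rule together with the preceding result, because a neighbour within 10 kb that carries H3K4me3 brings an H3K4me3 peak into range: 399 of the 403 peaks beside such a neighbour had one. For the 101 stronger peaks in the same range of gaps the share was 76.2% (interval 66.7 to 84.1%), which overlaps that of the weak peaks. The closest other H3K4me3 peak was at or above the ceiling for 206 of the 440 (46.8%), scored below 500 for 113 (25.7%), and was itself 1 of the 544 for 36 (8.18%). In the whole list of 18142 H3K4me3 peaks, 9042 were tied at the ceiling, 6057 scored below 500 and 544 were the weak peaks described here. Another H3K4me3 peak lay nearer than H3K27ac for 275 of the 544 weak peaks (50.6%, interval 46.3 to 54.8%).

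Some of the weak peaks were separated from another H3K4me3 peak by very little. The gap to the next H3K4me3 peak was at most 200 bp for 47 of the 544 and at most 1000 bp for 90 (16.5%, interval 13.5 to 19.9%). These counts were not taken for other H3K4me3 peaks, so they do not show whether such closeness is particular to the 544. Whether the calling divided 1 broader enriched region at these places was not tested, since the signal between peaks was not at hand. With H3K4me3 peaks less than 1000 bp apart joined first, 461 weak regions met the rule, 454 of them single peaks from the 544, and the share beside a neighbour with H3K4me3 became 69.6% (interval 65.2 to 73.8%).

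H3K27ac lay within 10 kb on both sides of 74 weak peaks (13.6%, interval 10.8 to 16.8%), so that they sat in a break between acetylated regions. The 2 flanking H3K27ac peaks were a median of 9235 bp apart (interval 7958 to 10638 bp, range 1649 to 19637 bp). The nearest H3K27ac peak carried H3K4me3 in 51 of the 74. Their score had a median of 102 (interval 84.1 to 132), and they measured a median of 606 bp (interval 535 to 695 bp). Both sides were acetylated for 7 of the 101 stronger peaks (6.93%, interval 2.83 to 13.8%), whose interval overlaps that of the weak peaks. Among the 41 weak peaks with a bare neighbour and H3K4me3 elsewhere it was 17 (41.5%, interval 26.3 to 57.9%). Among the 100 with no other H3K4me3 it was 6 (6%, interval 2.23 to 12.6%), and these intervals did not overlap. The grouping itself can bear on this contrast. If H3K27ac on the second side carries H3K4me3 within 10 kb, a weak peak with a bare nearest neighbour falls among the 41 by definition. How often this held was not counted. How much of the contrast this makes was not tested.

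Beyond the range of the rule, between 10 and 50 kb from their edges, the 544 weak peaks had a median of 2 H3K27ac peaks (quartiles 1 and 4) and 1 other H3K4me3 peak (quartiles 1 and 3). The weak peaks more than 10 kb from H3K27ac had medians of 1 (quartiles 0 and 2) and 0 (quartiles 0 and 1), and the weak peaks on H3K27ac had 3 (quartiles 1 and 5) and 1 (quartiles 0 and 2). The stronger peaks in the same range of gaps had 2 H3K27ac and 2 H3K4me3 peaks. Of the 1557 distant weak peaks, 776 had no H3K27ac within 50 kb. The rule chose the distant peaks by a gap above 10 kb, but it sets no limit between 10 and 50 kb. Why the counts differ was not tested, and they are given side by side only.

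The weak peaks were spread over all autosomes and the X chromosome, which held 538 of them. The other 6 lay on contigs to which mm9 gives no position along a chromosome, called unplaced below. Chromosome 2 held the most, with 44. As a share of the weak peaks without H3K27ac on a chromosome, they were most frequent on chromosome 8 (41 of 105, 39.0%, interval 29.7 to 49.1%) and least frequent on chromosome 1 (17 of 128, 13.3%, interval 7.93 to 20.4%), the highest and lowest of 20 chromosomes compared. The intervals of both leave out the 25.9% of all chromosomes. On the X chromosome the share was 21.0% (17 of 81, interval 12.7 to 31.5%). Chromosomes 8 and 1 are named because of these values, no test was made, and among 20 intervals some miss the common share through counting error alone.

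The 544 peaks had 515 distinct nearest H3K27ac peaks: 487 of these had 1 weak peak beside them, 27 had 2 and 1 had 3. By position, 472 weak peaks stood alone, with no other of the 544 within 20000 bp, 60 fell into 30 places of 2, and 12 into 4 places of 3. The tightest place of 3 lay on chromosome 8 (93412368 to 93415085). Peaks of 422, 401 and 847 bp with scores of 65.6, 55.0 and 87.8 filled a break between an H3K27ac peak at the ceiling, 272 bp from the first, and one scoring 167, which lay 258 bp from the last. Both acetylated peaks carried H3K4me3. On chromosome 10 (21873819 to 21879589) peaks scoring 248, 127 and 161 followed 1 H3K27ac peak of score 2748 at 3808, 8071 and 9103 bp, and the last 2 were 140 bp apart. The place on chromosome 12 (104659273 to 104682268) held peaks scoring 75.8, 88.9 and 166 beside 2 H3K27ac peaks with H3K4me3. The place on chromosome 7 (52563462 to 52595479) held peaks scoring 52.2, 326 and 133 whose acetylated neighbours scored 74.5, 89.6 and 89.6. That last place is the only one of the 4 in which every neighbour was weak.

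The closest approach was on chromosome 9 (21806540 to 21807240), a 701 bp peak of score 76.7 that ended 6 bp before an H3K27ac peak of score 2287 and 46 bp before an H3K4me3 peak at the ceiling. The peaks on chromosome 16 (91645123 to 91645707), chromosome 4 (135426870 to 135427394) and the X chromosome (126283575 to 126283994) had the same layout: gaps of 20, 53 and 67 bp to H3K27ac, gaps of 47, 206 and 180 bp to an H3K4me3 peak at the ceiling, and scores of 149, 69.0 and 74.8. In these 4 the weak peak directly adjoined a strong H3K4me3 peak at the edge of a region with both marks. The other of the 5 closest was different. On chromosome 4 (8726210 to 8726904) a 695 bp peak of score 106 ended 10 bp before a bare H3K27ac peak of 944 bp and score 318, had H3K27ac on its other side at 7998 bp, and was 37.4 kb from the next H3K4me3 peak.

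**Figure D5:**
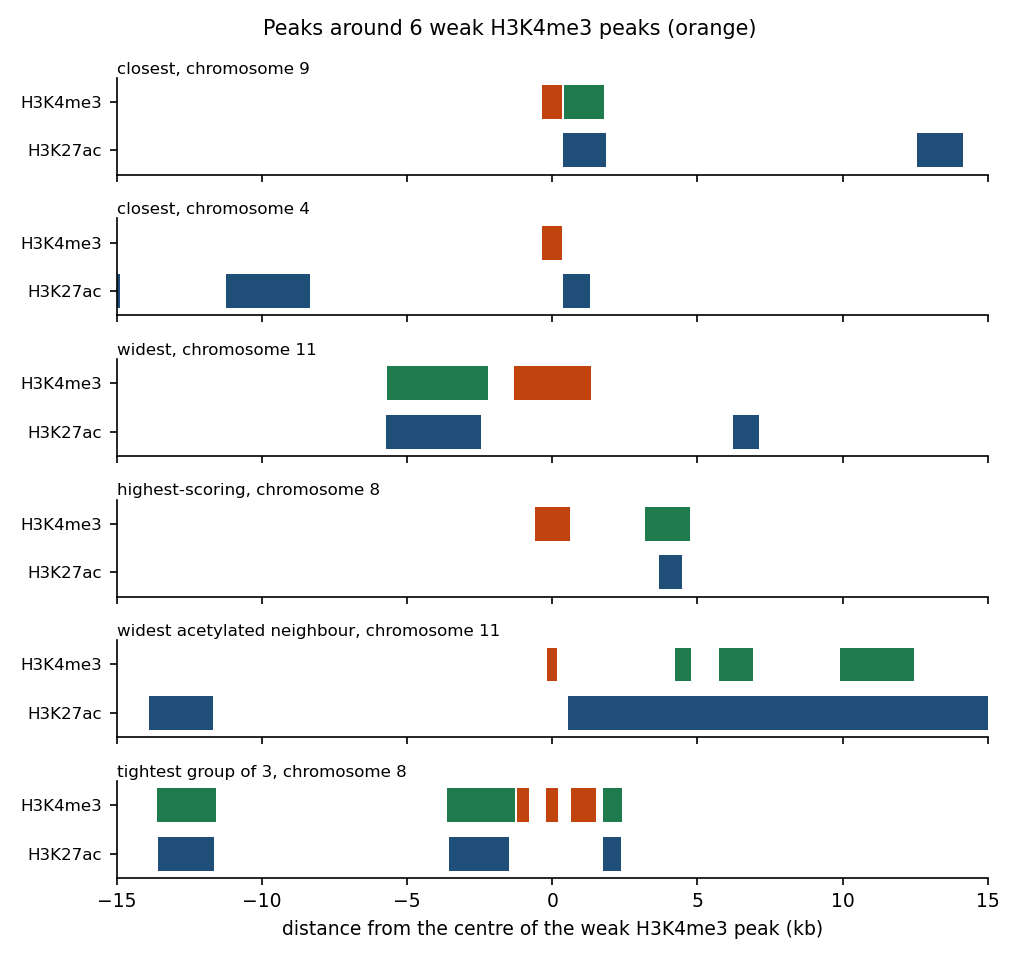
Called peaks within 15 kb (horizontal axis, kb from the centre of the weak peak) of 6 weak H3K4me3 peaks, with H3K4me3 in the upper row and H3K27ac in the lower row of each panel. Orange boxes are weak peaks of the 544, green boxes other H3K4me3 peaks and blue boxes H3K27ac peaks; boxes show position only, not score, and the wide H3K27ac peak in the fifth panel runs past the edge.

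The widest of the 544 was 2643 bp on chromosome 11 (60593205 to 60595847), with a score of 382. It lay 890 bp from an H3K4me3 peak at the ceiling and 1147 bp from an H3K27ac peak at the ceiling, with another H3K27ac peak 4891 bp away on its other side. The next widest were 2186 bp on chromosome 7 (149761972 to 149764157), 1904 bp on chromosome 6 (124946642 to 124948545), 1837 bp on chromosome 7 (138685249 to 138687085) and 1729 bp on chromosome 10 (81022011 to 81023739). Those on chromosome 6 and at 138685249 on chromosome 7 were 9407 and 9680 bp from H3K27ac at the ceiling. The other 2 were beside bare H3K27ac peaks scoring 411 and 164. The widest peaks thus did not share 1 kind of neighbour.

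The acetylated neighbour itself was wide in a few cases. On chromosome 11 (6072805 to 6073155) a 351 bp peak of score 114 lay 362 bp from an H3K27ac peak of 14760 bp, the widest neighbour of any of the 544. On chromosome 7, peaks at 25701113 to 25701645 and at 17476775 to 17477555 lay 8028 and 6273 bp from H3K27ac peaks of 13447 and 11258 bp. In these 3 places the closest other H3K4me3 peak was weak too, with scores of 59.8, 79.5 and 110. On chromosome 13 (21857455 to 21858143) and chromosome 10 (55953446 to 55954211) the neighbours measured 8099 and 7937 bp and the closest other H3K4me3 peak was at the ceiling. All 5 wide neighbours were at the ceiling and carried H3K4me3.

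Just inside the score limit were peaks on chromosome 8 (126038466 to 126039658, score 491), chromosome 2 (73114435 to 73115817, score 485, and 121632148 to 121633546, score 482), the X chromosome (20497210 to 20498468, score 475) and chromosome 1 (140737779 to 140739282, score 471). Just outside it were peaks on chromosome 3 (141945775 to 141946302, score 501), chromosome 7 (51843899 to 51844949, score 503), chromosome 19 (3685941 to 3686932, score 505), chromosome 11 (74983501 to 74984487, score 507) and chromosome 4 (147310213 to 147311469, score 515). The neighbours of the first 5 scored 103 to 562 and those of the second 5 scored 61.6 to 2129, so the sets interleave. The 5 just inside the gap limit lay 9870 to 9957 bp from H3K27ac and scored 54.5 to 399, and the 5 just outside lay 10005 to 10242 bp from it and scored 57.8 to 167.

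Which peaks counted as beside H3K27ac depended on how many weak H3K27ac peaks the list held. With only H3K27ac peaks of score 100 or more, 478 of the 544 still met the rule, 66 lost their neighbour, and 131 weak H3K4me3 peaks that had overlapped H3K27ac joined them. With the H3K27ac list shortened to its 18142 highest-scoring peaks, the length of the H3K4me3 list, 370 still met the rule, 174 did not, and 308 joined, all of which had overlapped H3K27ac before. Membership of the class therefore depends on the score threshold of the H3K27ac list; the part of its depth was not tested.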

How the data were processed

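Mouse precursor B-cell leukaemia cells were profiled by ChIP-seq for H3K4me3 and H3K27ac, with 1 sample each and an IgG control that was not analysed. The deposited files are 1 peak list per mark, called by the authors with MACS on mm9, per the submitters' processing notes; the MACS version, aligner, filters and depth are not stated. The deposited score is the authors' value per peak, undefined by label or header, and was used only within a list. Groups came from the sample titles.

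H3K4me3 peaks were assigned to classes by score (limit 500), overlap of at least 1 bp with H3K27ac and gap, the bp between 2 peaks (limit 10000). Gaps matched those of bedtools 2.31.1, and the class code was tested on simulated data. Shares carry exact 95% Clopper-Pearson intervals and medians order-statistic intervals. Both cover counting error only and take peaks as independent, which neighbouring peaks are not. Each mark has 1 library, so replicate error is unknown and nothing was tested. Named peaks are the 5 closest, 5 widest, 5 highest-scoring, 5 on either side of each limit, 5 with the widest neighbours, and the places with most peaks within 20000 bp of each other; 4 places tied where 3 were planned, and all 4 are given. Ties are ordered by chromosome name and start. The regions, limits and lists were chosen with earlier results of these data known. Alternatives covered both limits, the weakest peaks, joining of peaks, unplaced contigs and shared neighbours. The software was SciPy 1.17.1, pandas 2.3.3 and NumPy 2.4.6 under Python 3.11.15.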

Additional observations from a re-analysis of the deposited data

How the results depend on the processing

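Of 53 alternative values for 6 results (the number of weak peaks beside H3K27ac, their median width and gap, and the shares with an H3K4me3-carrying neighbour, another H3K4me3 peak within 10000 bp and H3K27ac on both sides), 38 fell inside the reported value's interval (for the number, within 1.5 times) and 15 did not. None of the 6 has a direction to reverse. With a score limit of 1000 the median width was 705 bp, and a limit of 300 moved none of the 6. A gap limit of 5000 bp gave 321 peaks, a median gap of 2285 bp and 18.4% with H3K27ac on both sides; a limit of 20000 bp gave 849 peaks, a median gap of 6888 bp, 56.3% with another H3K4me3 peak within 10000 bp and 8.72% with H3K27ac on both sides. Keeping only scores of 100 or more in both lists gave a median width of 825 bp, with 269 of its 367 peaks among the 544; this setting changes both lists at once, and the cause was not tested. Joining H3K4me3 peaks less than 1000 bp apart gave a median gap of 4824 bp, 69.6% with an H3K4me3-carrying neighbour and 77.0% with another H3K4me3 peak within 10000 bp. The H3K27ac list shortened to the length of the H3K4me3 list, an alternative chosen after seeing the data, gave a median width of 732 bp and shares of 81.7% and 85.4% for those 2 results. Leaving out unplaced contigs or counting 1 weak peak per H3K27ac neighbour moved none. Depth is unknown, so weak peaks missing from either list cannot be counted, and no paired analysis was possible because each mark has 1 library.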
